A study of Ovis aries with 6 samples.

Results

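The insulin-like growth factors and their binding proteins were followed in wool-bearing and wool-free skin of the same sheep. The members were chosen by accession: all non-control probes annotated with a sheep RefSeq mRNA of IGF1, IGF2, IGFBP1, IGFBP2, IGFBP3 or IGFBP5. This gave 9 probes of 6 genes among 15008 probes, of which 734 could be named, for 476 genes. IGF2, IGFBP2 and IGFBP5 had 2 probes each and the other genes 1. All 9 probes passed the filter on dim signals, under which 1 site had to have the probe well above background on each of its 3 arrays.

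The animals were 1 ram and 2 ewes of the Aohan fine wool breed, aged 12 months, reared in pens and with 1 sire in common, and no treatment is named. Skin was taken at full thickness. Body side skin, which bears wool, gave 3 samples and groin skin, which bears none, gave 3, each hybridised to its own single-colour Agilent sheep array. Such skin holds epidermis, follicles, glands, dermis, vessels and fat at once, so fewer cells of a type and less RNA per cell cannot be told apart in any value below.

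IGF1 and IGF2 are secreted growth factors that act mainly through the IGF1 receptor, and IGF2 is also taken up by the IGF2 receptor. The binding proteins hold most of the growth factor outside cells, lengthen its stay and regulate how much reaches the receptor, and proteases that cut them set it free. In skin, IGF1 from the dermal papilla is known as a signal that keeps follicles in their growth phase, and binding proteins are made by fibroblasts and follicle cells.

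Of the 9 probes, 1 (IGF1) was higher on the body side, 5 (IGFBP1, IGFBP3, both of IGFBP5 and the dimmer of IGF2) were lower and 3 (both of IGFBP2 and the brighter of IGF2) did not pass the threshold of an adjusted p under 0.05. These 6 calls, 66.7% of the probes, lie near the background: limma called 69.9% of all 13276 tested probes between the sites, 37.0% as higher and 32.9% as lower on the body side. The values of the 2 sites did not overlap for 66.7% of the 9 probes against 75.2% of all tested probes. That these probes changed at all is therefore no result about this family. The median log2 difference of the 9 probes, body side minus groin, was -1.35 against 0.10 over all tested probes, and was not tested. This median is the value of the IGFBP1 probe, which passed the filter through its groin signal. With normexp, another background correction, that probe was at -0.16. IGF2, IGFBP2 and IGFBP5 count in the median with 2 probes each. Unscaled signals were lower on the body side for all 9, and without scaling 9411 of the 13276 tested probes were called lower and 190 higher.

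The arrays of the 2 sites differed as a whole. All groin arrays came from 1 scan and all body side arrays from a second, so scan and site cannot be told apart. Groin arrays were brighter, with a 75th percentile 2.98 times that of the body side (two-sided p = 0.1 by exact permutation, the lowest value possible with 3 and 3), and between 10727 and 14052 probes per array were well above background. The body side arrays also differed among themselves. Replicate 2 had a 75th percentile signal of 2048 and 13381 probes well above background, against 1103 and 10727 for replicate 1 and 1131 and 11902 for replicate 3. Levels below are therefore log2 signals minus the 75th percentile of the array, where 0 is that percentile, and are compared between sites but not between probes. Differences are body side minus groin on this log2 scale, with the SE of limma's fit. The 8 wool follicle genes with a probe, such as KRT35, KRT25 and KRTAP5.4, were all higher on the body side (7 of 8 without scaling between arrays, where all 8 were above 0), and no gene of the keratinocyte list was named here.

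**Figure D1:**
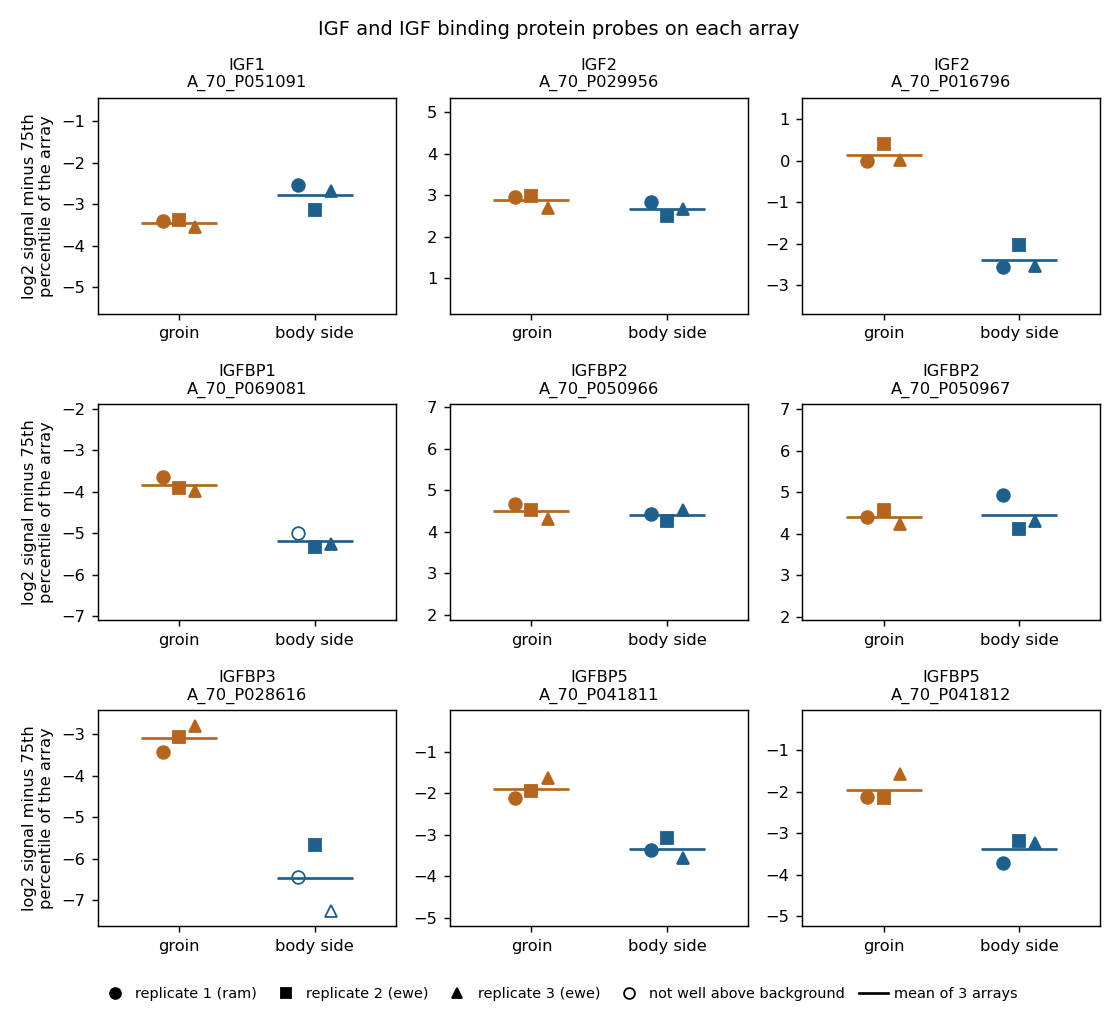
Level of each of the 9 probes on each array (log2 signal minus the array's 75th percentile, vertical axis) in groin and body side skin, with the mean of 3 arrays as a line and open symbols where the probe was not well above background. All vertical axes span the same range. The sites are apart for IGF1, for the dimmer IGF2 probe and for IGFBP1, IGFBP3 and IGFBP5, and overlap for the brighter IGF2 probe and both IGFBP2 probes. With no scaling between arrays the IGF1 difference turns to -0.92.

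IGF1 was, with the main scaling, the only one of the 6 genes called higher in wool-bearing skin. Its probe A_70_P051091 read -3.41, -3.39 and -3.54 in the groin (replicates 1 to 3) and -2.54, -3.14 and -2.68 on the body side. The lowest body side array, replicate 2, still lay above all groin arrays. The means were -3.44 ± 0.08 and -2.79 ± 0.32 (SD, n = 3 each), a difference of 0.66 ± 0.20 SE or 1.58-fold (limma adjusted p = 0.0164).

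The IGF1 difference was modest and leaned on single arrays. Its size exceeded that of 36.5% of all tested probes. The call ended without replicate 1 at both sites (0.55, limma adjusted p = 0.0839) and without replicate 3 (0.56, adjusted p = 0.165), and also without the replicate 3 array of the body side (0.60) or of the groin (0.61). Other scalings gave larger values, at 1.12 with median centring, 1.07 with quantile normalization, 1.00 with cyclic loess and 1.07 on the authors' deposited log2 values. Without scaling between arrays the sign turned, to -0.92, where the processed signal was 177 to 232 on the body side against 346 to 399 in the groin. Probes of like brightness (the fourth of 10 equal groups by mean signal) had a median difference of -0.26.

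IGF2, the fetal growth factor that stays expressed in adult tissues, gave a different answer with each of its 2 probes, which carry the same mRNA accession. The brighter probe A_70_P029956 read 2.96, 2.98 and 2.69 in the groin and 2.84, 2.51 and 2.67 on the body side. The ranges overlapped, and the difference of -0.20 ± 0.18 SE did not pass (limma adjusted p = 0.321, 95% interval -0.61 to 0.20).

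The dimmer IGF2 probe A_70_P016796 read 0.00, 0.39 and 0.02 in the groin and -2.57, -2.03 and -2.54 on the body side. Every groin array lay above every body side array by over 2 units. The means were 0.14 ± 0.22 and -2.38 ± 0.30 (SD, n = 3), so this probe was 5.74-fold higher in the groin (difference -2.52 ± 0.21 SE, limma adjusted p = 4.29e-05). The difference was larger than that of 93.8% of tested probes and stayed between -4.10 and -2.06 under all 21 alternatives.

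A constant shift of a whole array cancels in the gap between both IGF2 probes. The brighter probe exceeded the dimmer by 2.59 to 2.96 on the groin arrays and by 4.54 to 5.41 on the body side arrays. The gap thus widened by 2.32 between the sites (two-sided p = 0.1 by exact permutation, the lowest possible). With scalings that bend with brightness the widening was smaller, at 1.22 with quantile normalization, 1.23 with cyclic loess and 1.41 on the authors' deposited values, and the gaps of the sites still did not overlap. The 2 probes of IGFBP5 and those of IGFBP2 showed no such split: their site differences were 0.01 and 0.14 apart. Where either IGF2 probe lies in the transcript is not given in the files used here, so no IGF2 isoform is named.

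The brighter IGF2 probe also showed how far the call depends on the scaling. It lies in the brightest of the 10 groups, whose median difference was 1.14, against medians from -0.42 to 0.67 in the other groups. Methods that bend with brightness placed it lower on the body side: the difference was -1.11 with quantile normalization, -1.07 with cyclic loess and -1.11 on the authors' deposited log2 values, each past the threshold. With median centring it was 0.25 and not past. On the authors' deposited values this probe read 14.48, 14.63 and 14.45 in the groin and 13.43, 13.46 and 13.34 on the body side, with no overlap.

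IGFBP3, the main carrier of IGFs in blood and a product of dermal fibroblasts, showed the largest difference of the 6 genes with the main scaling, although with normexp that of the dimmer IGF2 probe was larger. Probe A_70_P028616 read -3.42, -3.06 and -2.80 in the groin and -6.45, -5.66 and -7.25 on the body side. All groin arrays lay above all body side arrays, and the body side arrays were spread widely. The means were -3.10 ± 0.31 and -6.45 ± 0.80 (SD, n = 3), a difference of -3.36 ± 0.37 SE (limma adjusted p = 1.42e-04).

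The body side signal of IGFBP3 was near background and the probe was tested through its groin signal, so the size of the difference is uncertain and no fold is given. Only 1 of the 3 body side arrays (replicate 2) read the probe well above background. The spot was 1.46 to 2 times as bright as its local background there, against 6.56 to 11.6 times in the groin. With normexp, a background correction that keeps dim signals above a floor, the difference shrank to -0.95 and still passed (limma adjusted p = 0.00251). Across all 20 alternatives it lay between -4.93 and -0.95, and every one kept the call.

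IGFBP5, a binding protein that attaches to matrix and is made by dermal and follicle cells, fell by much the same amount with both probes. Probe A_70_P041811 read -2.11, -1.96 and -1.64 in the groin and -3.37, -3.07 and -3.57 on the body side. Probe A_70_P041812 read -2.11, -2.15 and -1.58 against -3.70, -3.18 and -3.23. Neither probe overlapped between the sites.

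The IGFBP5 differences were -1.44 ± 0.20 SE (2.70-fold, limma adjusted p = 4.27e-04) and -1.42 ± 0.23 SE (2.68-fold, adjusted p = 7.66e-04). Both probes were well above background on all 6 arrays. Probes of like brightness had a median of -0.42, and the IGFBP5 differences minus that median were -1.02 and -1.01. The calls held under every alternative run, at -0.87 and -0.83 with normexp.

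IGFBP1, known as an insulin-regulated product of the liver, had a dim probe that was lower on the body side. Probe A_70_P069081 read -3.64, -3.90 and -3.99 in the groin and -5.00, -5.34 and -5.24 on the body side, without overlap. The means were -3.84 ± 0.18 and -5.19 ± 0.17 (SD, n = 3) and the difference -1.35 ± 0.18 SE (limma adjusted p = 0.00031). Of the body side arrays, replicates 2 and 3 read the probe well above background, with spots 2.51 and 2.28 times as bright as their surroundings. Replicate 1 did not, at 2.59 times. The probe was thus tested through its groin signal, so the size of the difference is uncertain and no fold is given. With normexp the difference was -0.16 and the call ended (adjusted p = 0.537, against 2.53e-05 to 0.00784 under the alternatives that kept it). Of the hepatocyte list, ALB (-0.53 ± 0.30 SE) and TTR (-0.45 ± 0.43) did not pass and SERPINA1 was higher (0.74 ± 0.19), though at -0.18 and not past with quantile normalization. Over the 3 of 6 genes with a probe, the mean level was -1.56 to -1.19 in the groin and -1.62 to -0.99 on the body side. The part of hepatocyte genes in the result was not tested.

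IGFBP2, a binding protein with an integrin-binding motif, gave bright signals at both sites. Probe A_70_P050966 read 4.6732, 4.5118 and 4.3001 in the groin and 4.42, 4.27 and 4.53 on the body side. Probe A_70_P050967 read 4.41, 4.57 and 4.24 against 4.93, 4.12 and 4.31. The sites overlapped for both.

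The IGFBP2 differences of -0.09 ± 0.17 SE (limma adjusted p = 0.656, 95% interval -0.49 to 0.31) and 0.05 ± 0.23 (adjusted p = 0.869, -0.49 to 0.58) did not pass. These probes too are in the brightest group, and their differences minus its median were -1.23 and -1.09. With quantile normalization both were called lower on the body side, at -1.30 and -1.15, with cyclic loess at -1.30 and -1.16, and on the authors' deposited log2 values at -1.34 and -1.18. With median centring both were above 0, at 0.37 and 0.50. Whether IGFBP2 differed between the sites thus depended on the scaling.

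**Figure D2:**
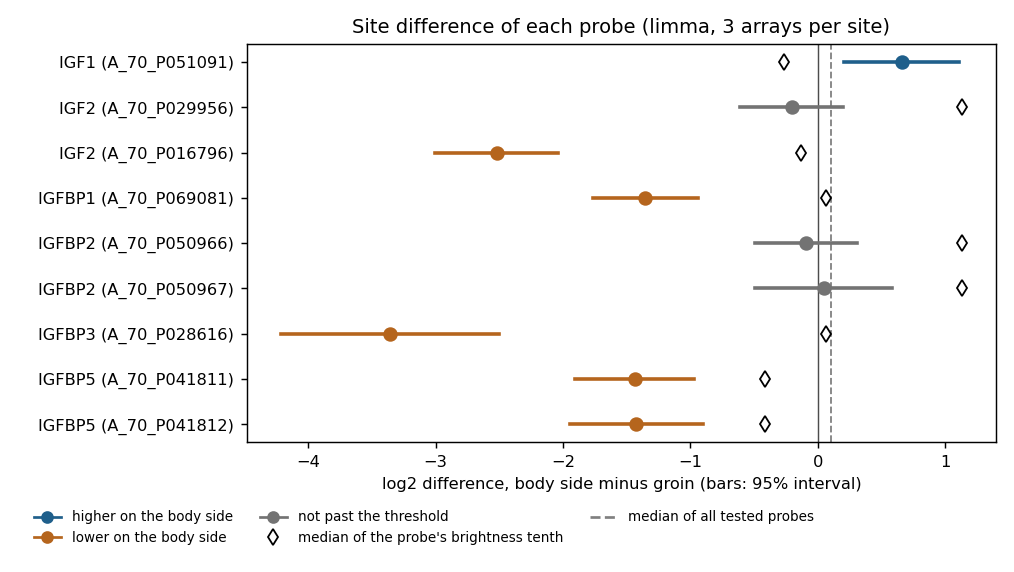
Difference between body side and groin for each probe (horizontal axis, log2), with limma's 95% interval as a bar, the median of all tested probes (0.10) as a dashed line and the median of probes of like brightness as a diamond. IGF1 lies above its diamond by 0.92, and the other 8 probes lie below theirs, at -1.01 to -3.43 from it. IGFBP1 and IGFBP3 passed the filter only through their groin signal. The signs of IGF1, of the brighter IGF2 probe and of both IGFBP2 probes turn with at least 1 other scaling.

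Set against probes of like brightness, 8 of the 9 probes lay below the median of their group and 1, IGF1, above it. This is a description of where the probes lie and carries no test. It holds also for the brighter IGF2 probe and both IGFBP2 probes, whose main differences were near 0. Among the 8, IGFBP1 and IGFBP3 passed the filter only through their groin signal, which favours values low on the body side. IGF2, IGFBP2 and IGFBP5 count with both of their probes.

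**Figure D3:**
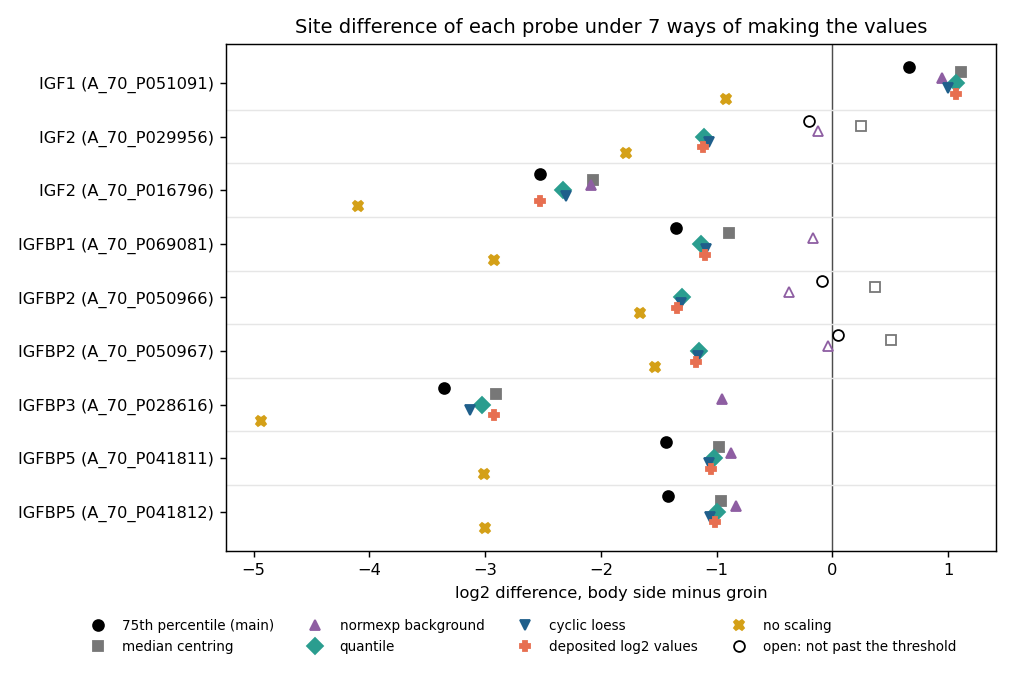
Difference between body side and groin for each probe (horizontal axis, log2) with the main 75th percentile scaling and under 6 other ways of making the values, with open symbols where the probe did not pass the threshold. The dimmer IGF2 probe, IGFBP3 and both IGFBP5 probes are below 0 and past the threshold in all, whereas the brighter IGF2 probe and IGFBP2 range from above 0 with median centring to below -1 with quantile normalization, cyclic loess and the deposited values, and IGF1 is above 0 except with no scaling.

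Comparing genes on the same array removes a constant shift of that array, but not a scaling that bends with brightness. IGF1 and IGFBP3, the ligand and its main carrier, moved apart by 4.02 on the log2 scale: the gap between their probes was -0.73 to 0.01 on the groin arrays and 2.52 to 4.58 on the body side arrays. IGF1 and IGFBP5 moved apart by 2.09, with gaps of -1.89 to -1.30 and -0.07 to 0.90. IGF1 and the brighter IGF2 probe moved apart by 0.86, with gaps of -6.38 to -6.23 and -5.65 to -5.35. None of these gaps overlapped between the sites, and each had an exact two-sided permutation p of 0.1, the smallest possible. With normexp the contrasts of IGF1 with IGFBP3 and with IGFBP5 were 1.89 and 1.82, and with quantile normalization 4.09 and 2.09. That of IGF1 with IGF2 was 2.18 with quantile normalization and 2.07 with cyclic loess.

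Contrasts among the binding proteins depended on how dim and bright signals were treated. That of IGFBP3 with IGFBP5 was -1.92, with gaps of -1.31 to -1.11 in the groin and -3.68 to -2.59 on the body side, but -0.076 with normexp (exact permutation p = 0.9), IGFBP3 being near background on the body side. That of IGFBP1 with IGFBP5 was 0.083 (exact permutation p = 0.9), 0.71 with normexp (p = 0.3) and -0.11 with quantile normalization. IGFBP1 and IGFBP3 are neighbours on chromosome 4 in the gene table of assembly ARS-UI_Ramb_v3.0 and moved apart by 2.01 (0.79 with normexp). IGFBP2 and IGFBP5, neighbours on chromosome 2, had a contrast of 1.34, which was 0.50 with normexp (exact permutation p = 0.3) and turned to -0.28 with quantile normalization, -0.24 with cyclic loess and -0.30 on the authors' deposited values.

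The ram and the ewes could be compared because each sex was sampled at both sites. The site difference of IGF1 was 0.87 in the ram and 0.55 in the mean of the ewes, that of IGFBP3 -3.03 and -3.52, and that of IGFBP1 -1.36 and -1.35. For the dimmer IGF2 probe it was -2.57 and -2.49. None of the 9 probes passed limma's interaction of site and sex, where 0.113% of tested probes did, and none had an unadjusted p under 0.05, where 8.45% did. The smallest adjusted p was 0.773, for IGFBP2 probe A_70_P050967 (0.52 in the ram, -0.19 in the ewes). With 1 ram this interaction is imprecise, with SEs from 0.40 to 0.73.

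By distance between profiles over the 6 arrays, each centred on its own mean, the 3 nearest of 432 named genes were sought for each member. Near to IGF1 were LHB, a subunit of luteinizing hormone (distance 0.081), and SLC2A3, a glucose transporter (0.090). The site difference of LHB turned from 0.60 to -0.46 with quantile normalization. Nearest to IGFBP3 were ARFIP2 (0.239), the small GTPase ARF1 (0.330) and ITGB1, an integrin chain (0.351). Nearest to IGFBP5 were the mast cell tryptase TPSB2 (0.127), BCKDHA of amino acid breakdown (0.151) and the tropomyosin TPM1 (0.153), and nearest to IGFBP1 were TAC1, a neuropeptide precursor (0.198), the selectin SELE (0.208) and TLR4 (0.220). IGF2 and IGFBP2 shared CAPN3 (0.147 and 0.113) and GGTA1 (0.147 and 0.140), beside FAS (0.127) for IGF2 and CXCL1 (0.141) for IGFBP2. All these profiles share the same 6 arrays and 2 sites.

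Of the hormones and receptors upstream or alongside, 8 of 28 listed genes had a probe and 6 were tested, with 3 higher, 1 lower and 2 not past the threshold. Over all 441 named genes tested, 200 were higher, 113 lower and 128 not past. The counts of this list and of the next 2 carry no test. GHRHR, the receptor for growth hormone-releasing hormone, differed by 1.67 ± 0.21 SE (limma adjusted p = 2.26e-04), SST, the hormone somatostatin, by 1.72 ± 0.18 with a signal above background on 2 of the body side arrays, and PRL, prolactin, by 1.76 ± 0.29 and with its other probe by 1.43 ± 0.19. Without scaling between arrays these were 0.09, 0.14, 0.18 and -0.14 and none passed. LEPR encodes the receptor for leptin, and its brightest probe did not stand clear of background on any array of the body side. With the main scaling its groin level was at least 3.44-fold higher. This bound did not hold with normexp, where its difference was -0.36 and did not pass, so the size is uncertain. LEPR probe A_70_P039557 gave at least 1.24-fold with the main scaling. Probe A_70_P056811, clear of background on 1 body side array, gave -0.67 and did not pass (limma adjusted p = 0.0727). With the main scaling GHR, the growth hormone receptor through which the hormone raises IGF1, did not pass (0.84 ± 0.44, limma adjusted p = 0.116). Nor did GHRL, ghrelin (-0.42 ± 0.26). GHR was called higher with median centring (1.30) and normexp (1.00), was at 0.14 without replicate 1 and turned to -0.73 without scaling. Leaving out replicate 2 at both sites (1.34) or on the body side (1.27) also gave a call. GHRL was called higher with normexp (1.06) but lower with cyclic loess (-0.77), without scaling and without body side replicate 1 (-0.65). The receptors IGF1R, IGF2R and INSR and the carriers IGFBP4, IGFBP6 and IGFBP7 had no probe named through the gene table and are not analysed here.

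Of the transduction genes below these receptors, 5 of 57 were tested, with 2 higher and 3 lower (200 and 113 of all 441 named genes). AKT1, the kinase that carries insulin and IGF signals, read -1.02 ± 0.26 in the groin and -3.12 ± 0.26 on the body side (SD, n = 3), lower on all body side arrays (difference -2.10 ± 0.21 SE, limma adjusted p = 8.49e-05). STAT5A, which relays growth hormone and prolactin, fell by 1.01 ± 0.19. The other STAT5A probe differed by -2.05 ± 0.23. With quantile normalization the brighter STAT5A probe was at -0.57. PRKAA2, a catalytic subunit of the energy sensor AMPK, rose by 1.18 ± 0.18, but was at -0.39 without scaling. SLC2A3 rose by 0.67 ± 0.17, while its other probe did not pass (-0.04 ± 0.18). The SLC2A3 call ended with quantile normalization (0.06), cyclic loess (0.04) and the authors' deposited values (0.05) and without replicate 3 (0.59), and without scaling the value was -0.90.

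Of the proteases known to cut binding proteins and their inhibitors, 8 of 27 were tested, with 1 higher, 5 lower and 2 not past. Of all 441 named genes tested 200 were higher and 113 lower. MMP2, a gelatinase made by dermal fibroblasts, read 0.14 ± 0.09 in the groin and -3.57 ± 0.33 on the body side (SD, n = 3), with 2 body side arrays well above background, a difference of -3.71 ± 0.20 SE (limma adjusted p = 8.91e-06). Its other probes gave -3.17 and -3.31, the latter -1.20 with normexp. TIMP1, an inhibitor of such proteases, rose by 1.89 ± 0.23 with one probe and 1.86 ± 0.25 with the other, but by 0.52 and 0.53 with quantile normalization, and 0.31 and 0.29 without scaling, where neither passed.

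Other called members of that list had smaller changes. PLAU, the plasminogen activator urokinase, fell by 1.1003 ± 0.17 SE. With normexp the PLAU call did not hold, at -0.29. MMP7, matrilysin, fell by 0.66 ± 0.18, but was at -0.21 and not past with median centring, at -0.59 without replicate 3 or groin replicate 2. The dimmer MMP7 probe gave -0.42 ± 0.19 and missed the threshold. TIMP3, a matrix-bound inhibitor, fell by 0.69 ± 0.20, a call that ended with quantile normalization (-0.25), median centring (-0.24), cyclic loess (-0.32), normexp (-0.36) and the authors' deposited values (-0.27), and without replicate 2 (-0.71), replicate 3 (-0.51) or groin replicate 3 (-0.51). MMP14 (0.63 ± 0.44) and F2, prothrombin (0.73 ± 0.41), did not pass with the main scaling. Both were called higher with median centring (1.08 and 1.19) and with normexp (1.12 and 1.00).

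**Figure D4:**
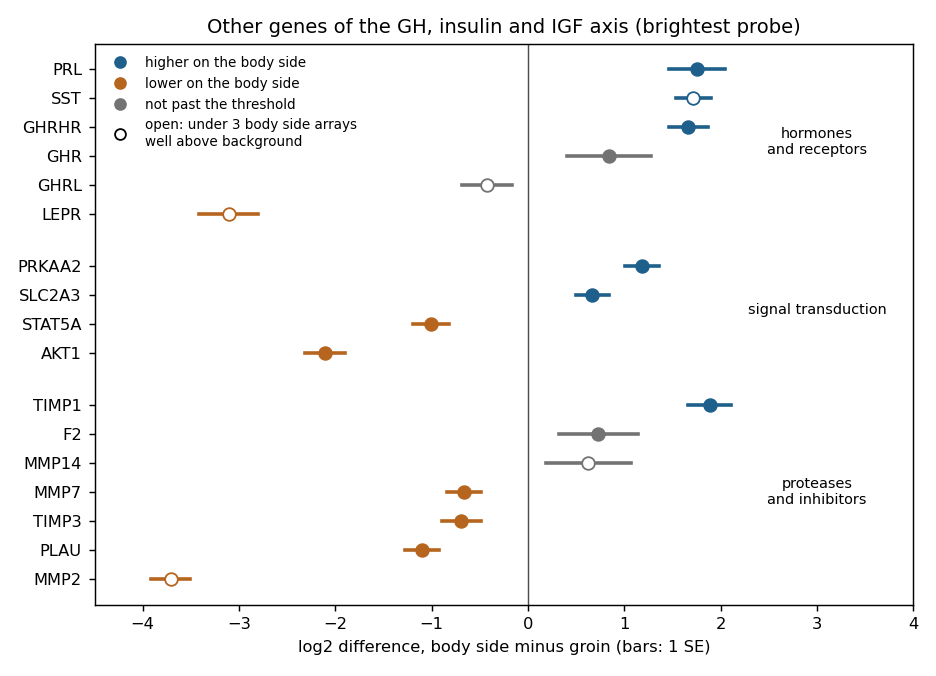
Difference between body side and groin (horizontal axis, log2, bars of 1 SE) for the brightest probe of other tested genes of the growth hormone, insulin and IGF axis, in 3 groups. AKT1, LEPR and MMP2 lie at -2.10 or below, and GHRHR, SST, PRL and TIMP1 between 1.67 and 1.89. Open symbols mark genes with under 3 body side arrays well above background. The signs of SLC2A3, PRKAA2, GHR, F2 and MMP14 turn without scaling, and that of GHRL with normexp and with median centring.

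Markers of other skin cells were sparse on the array. Of the 14 listed fibroblast markers 3 had a probe. MMP2 and BGN were lower on the body side and DCN was higher, though the dimmer DCN probe did not pass (0.32). DCN was at -0.36 with quantile normalization and -0.81 with cyclic loess, and BGN was not past with median centring (-0.40). The mean level of the 3 genes was 1.92 to 2.04 on the groin arrays and 0.64 to 0.82 on the body side arrays. MMP2 had by far the largest of the 3 differences (-3.71, against -0.86 for BGN and 0.89 for DCN). The lower mean is thus not shared by all 3 genes. Of the 9 endothelial markers the 2 with a probe, SELE and SELP, were both lower, SELP not past with quantile normalization (-0.30). Their mean level was -2.72 to -2.49 in the groin and -3.79 to -3.58 on the body side. Only 1 of the 2 was called lower with quantile normalization, median centring, normexp or the deposited values. Of the 12 adipocyte markers 4 had a probe, and their mean level was 0.38 to 0.47 in the groin and -0.24 to 0.13 on the body side. PLIN2 (-2.13) and LPL (-0.71) were lower, PLIN1 (0.62) was higher and PPARG (0.12) did not pass. PLIN2 had by far the largest of these differences. The other probes of PLIN2 and LPL were also lower (-2.14 and -0.97), while the other PLIN1 probe did not pass (0.09). No adipocyte marker was called higher with quantile normalization, cyclic loess or the deposited values. LPL was well above background on 1 body side array and was thus tested through its groin signal. It turned to 0.51 with normexp, and PLIN1 to -0.95 without scaling. Of 5 tested skeletal muscle genes 4 were higher and 1 lower, and of 4 tested leukocyte genes 2 were higher and 2 did not pass. Without scaling 0 of either list were higher and 2 of each were lower. The leukocyte genes that did not pass, CD14 and ITGAM, were called lower with their dimmer probes (-0.89 and -3.02). That ITGAM probe was not well above background on any body side array. The dimmer probes of CD3D and CD3E were higher (1.16 and 0.94). The smooth muscle gene CNN1 did not pass with the main scaling (-0.35). Over all 441 named genes tested 200 were higher and 113 lower. The part of these marker lists in the IGFBP differences was not tested.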

How the data were processed

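Total RNA of 6 skin samples was labelled with Cy3 and hybridised to 1-colour Agilent arrays, per the labels' protocols. The submitters' processing notes name Agilent Feature Extraction 10.5.1.1 as the source of the deposited scanner intensity values. The processed signal was background-subtracted and detrended within each array, per the file headers. The authors also deposited log2 values, whose columns all had a median of 8.31 and correlated at 0.999 with quantile-normalized log2 signals. How they were normalized and corrected for background is not given in the labels or headers.

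From these, control and outlier spots (6 to 51 per array) were left out, the 5 spots of 50 probes averaged, and log2 processed signals scaled by the 75th percentile of each array. No non-control spot was saturated. Probes with a signal well above background on all 3 arrays of a site, and at least 2 values per site, were tested with limma 3.58.1 in R 4.3.3, without a block, with Benjamini-Hochberg adjustment over all 13276. The precision is limited by the number of arrays. The code was tested on simulated data.

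Names came from RefSeq accessions in the table of ARS-UI_Ramb_v3.0, and the files name no build. For a gene with several probes the brightest stands for it unless both are given. The at-least fold of LEPR applies to the main scaling only. It sets the groin mean against the higher, per body side array, of its own value and the lowest value well above background. Named were all member probes, the 3 nearest genes to each, and called members of 3 axis lists, some of which are counted but not reported here by name. Members and lists were chosen with earlier results of these data known.

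Samples were grouped by the site in their titles. Number 1 is the ram at both sites, and whether 2 and 3 mark the same ewe is unknown from the labels. Array deviations around their site's mean correlated at 0.159, 0.089 and -0.088 for same-numbered arrays. Groin 3 and body side 2 reached 0.164, above the ram's own arrays, so these values cannot decide the pairing. As the labels leave it open, the main test used no block, and a block by number was an alternative. Alternatives were other scalings, normexp (offset 50, on median spot and background signals), the deposited values, other filters, spread estimates, a block, sex, outlier spots kept, probe means and leaving out arrays.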

Additional observations from a re-analysis of the deposited data

How the results depend on the processing

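The dimmer IGF2 probe and both IGFBP5 probes kept direction and call in all 21 or 22 alternatives and IGFBP3 in all 20. IGFBP1 kept them except with normexp (-0.16). IGFBP1 and IGFBP3 were not tested with the filter on all 6 arrays. Without scaling between arrays IGF1 was at -0.92, the brighter IGF2 probe at -1.78 and the IGFBP2 probes at -1.67 and -1.53, so that 0 of the 9 probes were called higher and 9 lower, and over the whole array 190 probes were called higher and 9411 lower against 4917 and 4362. With quantile normalization, cyclic loess and the deposited values 8 of the 9 were called lower, against 4096, 4499 and 4167 of all 13276 tested probes. In the same order the brighter IGF2 probe was at -1.11, -1.07 and -1.11. IGFBP2 probe A_70_P050966 was at -1.30, -1.30 and -1.34 and A_70_P050967 at -1.15, -1.16 and -1.18. Median centring gave 0.25 for IGF2 and 0.37 for IGFBP2, and the mean of both IGF2 probes was -1.36. With normexp A_70_P050967 was at -0.034, the contrast of IGF2 with IGFBP2 at 0.25 and that of IGFBP1 with IGFBP2 at 0.21. Within-array contrasts were also taken with quantile normalization, cyclic loess and the deposited values, chosen after seeing the data. In that order IGF2 with IGFBP2 was 0.19, 0.24 and 0.23, IGFBP1 with IGFBP2 0.17, 0.21 and 0.24, IGFBP2 with IGFBP5 -0.28, -0.24 and -0.30, and IGFBP1 with IGFBP5 -0.11, -0.021 and -0.054. IGF2 with IGFBP5 was -0.091 with quantile normalization and -0.069 on the deposited values, where IGF2 with IGFBP1 was -0.015. Of 120 such values 18 changed sign. The filter on all 6 arrays left 7 of the 9 probes, of which 3 were called lower, against 2963 of all 10576 probes tested with it. Leaving out replicates or arrays gave 0 or 1 higher calls, IGF1 from 0.54 to 0.87, A_70_P050967 from -0.19 to 0.30 (below 0 without replicate 1, body side replicate 1 or groin replicate 3), and the contrast of IGFBP1 with IGFBP5 from -0.21 to 0.29. Of all calls on the array 53.0% were higher, but 68.5% with median centring, 68.6% with normexp and 61.8% with the filter on all 6 arrays. Median centring and normexp moved the median difference of all probes by 0.46 and 0.36, cyclic loess by -0.12 and no scaling by -1.57. The replicate block changed no call on the 9 probes, with IGF1 at 0.66 and an adjusted p of 0.0238 in limma, and left 9210 calls on the array against 9279. The causes of these shifts were not tested. Signal over background limits IGFBP1 and IGFBP3 on the body side.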

Other observations

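Neither of the 2 probes of GH, growth hormone, and not the probe of GHSR, the ghrelin receptor, was well above background on any of the 6 arrays. The second probe of SST was so on 1 array of each site and was not tested.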
